A study of Mus musculus with 2 samples.

Results

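CpG-poor promoters were taken as the windows of 500 bp on either side of the transcription start site (TSS) of autosomal protein-coding genes in which 4 to 20 CG cytosines, counted on each strand separately, had at least 1 call in either library. Each window also had to hold at least 20 calls in each library, and genes of the olfactory and vomeronasal receptor families (Olfr, Vmn1r and Vmn2r) were left out. The rule gave 2745 genes out of 20807 autosomal protein-coding genes in the GENCODE M21 annotation of the mouse genome GRCm38, of which 19710 had a testable window. Before the minimum of calls 3176 genes met the rule, and 431 of these were under it in either library. A CG cytosine without a call was not counted, so 207 of the 2745 windows hold more than 20 CG cytosines in the reference sequence. The 15837 windows with more than 20 CG rows served as the CpG-rich comparison.

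DNA methylation had been measured by whole genome bisulfite sequencing (WGBS) in primary osteoblasts of 3-day-old C57BL/6 mice, cultured for 3 days. One group was wild type (WT). The other came from mice that carry Prx1-Cre and are Tet1fl/fl Tet2fl/fl Tet3fl/fl (TCKO), in which the floxed alleles of all 3 Tet genes are recombined in cells with a history of Prx1-Cre, a driver active in limb and part of the skull mesenchyme, so other cells of the culture can keep them. Each genotype had 1 library, and whether cells of several animals were pooled is not given in the sources used here, so no difference below has a replicate check and each test compares the 2 libraries. The WT library held 250877554 calls on autosomal CG cytosines and the TCKO library 214609823, with a median of 4 calls per cytosine in both. The autosomal level, the share of calls read as methylated, was 70.4% in WT and 76.6% in TCKO. In runs of 500 bp steps chosen for having at most 25% of the WT calls, the library labelled TCKO had 70 calls in Tet1 against 755 in WT, 13 against 122 in Tet2 and 9 against 133 in Tet3. The choice of steps fixes the direction of these counts and other genes were not searched, so the genotypes rest on the labels. Over the whole of Tet1 the calls were 11658 (TCKO) and 14737 (WT).

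TET enzymes oxidise 5-methylcytosine (5mC) to 5-hydroxymethylcytosine (5hmC) and further products, a route by which methylation is removed from DNA. Most promoters of widely used genes lie in CpG islands, dense runs of CG that stay unmethylated in nearly all cells, whereas promoters with few CGs often belong to genes used in a single tissue and are methylated where the gene is silent. In osteoblasts and other mesenchymal cells, genes for matrix proteins, such as the small leucine-rich proteoglycans that bind collagen fibrils, are among those with CG-sparse promoters. Bisulfite reads 5mC and 5hmC alike as methylated.

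The sequences below show what a CpG-poor promoter looks like. They are the 240 bases just upstream of the TSS in 6 genes whose promoters were at 21.3% or less in WT and at 59.0% or more in TCKO, and in Adamts4, whose promoter was at 20% or less in both libraries. Each is written 5′ to 3′ on the strand of the gene, from the GRCm38 reference, with the CG dinucleotides in capitals. No annotated exon of GENCODE M21 overlaps them.
Aspn (chr13:49544203-49544442, plus strand): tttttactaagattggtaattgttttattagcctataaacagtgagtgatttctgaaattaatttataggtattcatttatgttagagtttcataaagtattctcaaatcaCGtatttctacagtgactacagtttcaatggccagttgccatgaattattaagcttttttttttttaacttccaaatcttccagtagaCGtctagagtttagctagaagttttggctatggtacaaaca
Ecm2 (chr13:49504570-49504809, plus strand): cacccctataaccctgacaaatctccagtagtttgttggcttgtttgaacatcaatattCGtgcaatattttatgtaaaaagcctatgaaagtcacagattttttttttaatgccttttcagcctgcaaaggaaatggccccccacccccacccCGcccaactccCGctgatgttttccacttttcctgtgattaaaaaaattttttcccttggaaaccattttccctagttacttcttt
Ogn (chr13:49607806-49608045, plus strand): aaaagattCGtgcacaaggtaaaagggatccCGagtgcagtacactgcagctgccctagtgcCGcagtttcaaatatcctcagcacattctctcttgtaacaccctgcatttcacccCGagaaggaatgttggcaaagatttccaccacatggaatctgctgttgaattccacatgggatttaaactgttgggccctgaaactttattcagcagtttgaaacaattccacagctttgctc
Clec11a (chr7:44306903-44307142, minus strand): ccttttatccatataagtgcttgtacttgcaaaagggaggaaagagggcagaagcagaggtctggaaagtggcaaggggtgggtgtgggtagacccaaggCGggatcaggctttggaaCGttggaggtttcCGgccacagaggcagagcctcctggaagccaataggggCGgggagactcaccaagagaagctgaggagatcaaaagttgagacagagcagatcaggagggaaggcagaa
Abca8a (chr11:110095979-110096218, minus strand): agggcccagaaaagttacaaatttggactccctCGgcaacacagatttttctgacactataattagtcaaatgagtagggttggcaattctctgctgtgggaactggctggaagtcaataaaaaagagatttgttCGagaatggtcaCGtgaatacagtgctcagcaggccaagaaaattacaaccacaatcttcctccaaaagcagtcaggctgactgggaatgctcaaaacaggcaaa
Fcgrt (chr7:45103852-45104091, minus strand): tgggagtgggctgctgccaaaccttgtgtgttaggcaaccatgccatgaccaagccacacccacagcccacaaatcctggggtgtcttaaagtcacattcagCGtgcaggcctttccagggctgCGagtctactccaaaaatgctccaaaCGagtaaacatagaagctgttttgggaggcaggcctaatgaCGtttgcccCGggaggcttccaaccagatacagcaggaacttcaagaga
Adamts4 (chr1:171250181-171250420, plus strand): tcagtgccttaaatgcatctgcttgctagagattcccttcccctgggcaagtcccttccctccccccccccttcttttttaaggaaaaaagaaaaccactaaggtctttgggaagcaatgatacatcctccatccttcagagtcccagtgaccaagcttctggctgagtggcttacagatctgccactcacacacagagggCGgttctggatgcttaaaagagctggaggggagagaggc
The 240 bases hold 2 CGs in Aspn, 3 in Ecm2 and Abca8a, 4 in Ogn and Clec11a, 5 in Fcgrt, and 1 in Adamts4. In the promoter of Aspn, which encodes the collagen-binding proteoglycan asporin, the CG 129 bp upstream of the TSS was read as methylated in 1 of 32 calls in WT and 12 of 21 in TCKO, with both strands of the CG counted together. The CG 41 bp upstream had 0 of 30 methylated calls in WT and 8 of 20 in TCKO. The 3 capitals of Abca8a, a gene for a transporter of the ATP-binding cassette family, lie 207, 105 and 93 bp upstream, and had 2 of 19, 0 of 10 and 2 of 12 methylated calls in WT against 18 of 24, 18 of 19 and 16 of 18 in TCKO. All 5 CGs in capitals for these 2 genes were thus mostly unmethylated in WT, and each had a larger methylated share in TCKO.

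CpG-poor promoters were mostly methylated in WT osteoblasts and more so in TCKO. The median level over the 2745 promoters was 64.1% in WT (interquartile range 51.6% to 74.1%) and 69.9% in TCKO (57.7% to 80.4%). The change of the single promoter had a median of 4.76 percentage points (interquartile range -1.87 to 13.0), and 1905 promoters (69.4%) were higher in TCKO. CpG-rich promoters had median levels of 3.39% (WT) and 5.49% (TCKO), with a median change of 0.744 points and 59.9% higher in TCKO. Calls per window differed as well, the median window holding 72 (WT) and 57 (TCKO) for CpG-poor promoters and 162 and 131 for CpG-rich ones.

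**Figure D1:**
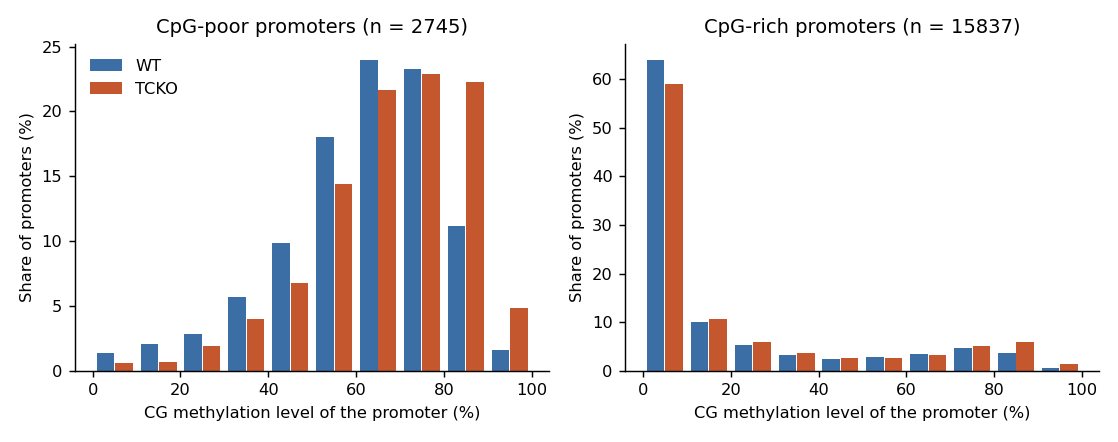
Distribution of promoter levels in WT (blue) and TCKO (orange), as the share of promoters in each 10-point class of CG methylation (%), for CpG-poor promoters at left and CpG-rich promoters at right, with different vertical scales. CpG-poor promoters peak between 60% and 80% in WT and the TCKO bars are shifted to the right, with 611 promoters between 80% and 90% against 307 in WT, while most CpG-rich promoters lie under 10% in both libraries.

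At the upper end, 352 CpG-poor promoters were at 80% or more in WT, and 743 were in TCKO. At the lower end, 97 (3.53%) were at 20% or less in WT and 37 (1.35%) in TCKO. Of the CpG-rich promoters, 11723 (74.0%) were at 20% or less in WT. A low level in WT was thus uncommon among CpG-poor promoters and the usual state of CpG-rich ones.

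The levels and changes varied with the number of CG rows inside the class. The 924 promoters with 4 to 10 rows went from a median of 61.5% to 65.0%, with a median change of 2.97 points. The 771 with 11 to 15 rows went from 64.4% to 70.7%, with a median change of 5.26 points, and the 1050 with 16 to 20 rows from 66.1% to 74.1%, with 6.18 points. Just inside the upper limit, the 389 promoters with 19 or 20 rows had medians of 66.4% and 75%, and just outside it the 369 with 21 or 22 rows had 66.3% and 74.7%. The median levels just inside and just outside the limit of 20 rows were therefore close. Whether the limit parts different kinds of promoter was not tested. Genes whose symbol is Gm and a number, predicted genes without an assigned name, made up 478 of the 2745 and had a median change of 2.27 points, against 5.46 points for the other 2267.

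Methylated and unmethylated calls of each promoter were compared between the libraries by Fisher's exact test (2-sided), the p-values were adjusted after Benjamini and Hochberg over all 19710 testable windows, and a promoter was called where the adjusted p was below 0.05 and the levels differed by at least 20 points. Of the 2745 CpG-poor promoters, 216 (7.87%) were called higher in TCKO, beside 4.65% of all testable windows. Only 6 (0.219%) were called lower, beside 0.32% of all windows. Among CpG-rich promoters 685 (4.33%) were called higher and 52 (0.328%) lower. The share called higher rose with the number of CG rows, from 4.22% at 4 to 10 rows to 8.30% at 11 to 15 rows and 10.8% at 16 to 20 rows, while the median calls in WT rose from 55 to 76 and 87. How far the number of calls sets these shares was not tested. The 216 promoters called higher had median levels of 39.4% in WT and 75.5% in TCKO, and 39 of them were at 20% or less in WT.

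The change was larger at WT levels under 40% than above 50%. Promoters up to 10% in WT had a median change of 17.6 points (38 promoters) and those between 20% and 30% of 19 points (77 promoters), the highest of the classes. Promoters between 10% and 20% in WT had a median change of 16.5 points (57 promoters), those between 40% and 50% of 9.78 points (271 promoters) and those between 70% and 80% of 3.46 points (640 promoters). Above 80% the median was 0.413 points up to 90% and -0.966 points beyond. Classes cut on WT calls favour WT values that are low by counting error, so the classes were also cut on the calls of one strand and the change was read on those of the other. Cut on the plus strand and read on the minus strand, the median change was 11.7 points up to 10%, 22.9 points between 10% and 20%, 17.2 points between 20% and 30%, 9.74 points between 40% and 50%, and 4.29 points between 70% and 80%. In the reverse arrangement it was 15.5, 18.1, 15.1, 6.06 and 5.21 points. The smaller change at higher WT levels was therefore present on separate calls too. Between 80% and 90% the split strands gave 2.38 and 5.17 points, above the value on all calls.

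**Figure D2:**
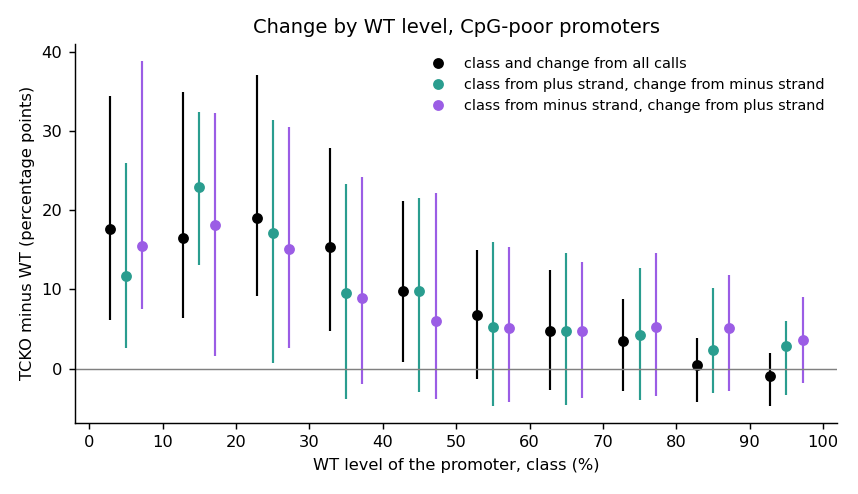
Median change in level (TCKO minus WT, percentage points) of CpG-poor promoters in 10-point classes of WT level (%), with vertical lines for the interquartile range over promoters. Black points use all calls for class and change, green and purple points take the class from one strand and the change from the other, and in all 3 arrangements the medians under 30% in WT lie above those over 50%.

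The 97 promoters at 20% or less in WT had a median level of 12.9% in WT and 29.4% in TCKO, and a median change of 18.4 points, with 90 of 97 higher in TCKO. In TCKO they fell into 3 groups. In 39 (40.2%, beside 7.87% of all CpG-poor promoters) the level was called higher, with a median of 56.3% in TCKO. Another 26 (26.8%) were still at 20% or less, with a median of 11.6%, and the other 32 lay above 20% without a call, with a median of 25%. The median calls in TCKO were 64, 76 and 36.5 for the 3 groups, so the 32 above 20% without a call were the shallowest.

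Because the class was cut on the WT level, its change is in part set by the cut. With the class cut on plus-strand WT calls, 85 of 2071 promoters were low, and on their minus-strand calls they had medians of 18.9% in WT and 42.1% in TCKO, with a median change of 17.4 points and 70 higher in TCKO. Cut on the minus strand, 88 of 2054 were low and the plus strand had medians of 22.3% and 46.4%, with a median change of 16.8 points and 75 higher. Promoters chosen as low in TCKO on one strand (35 on plus, 28 on minus) had a median change on the other strand of 0.370 and 5.42 points. A cut on the TCKO level favours promoters with a small increase, so their change is in part set by the cut too. Calls of the 2 strands come from different reads of the same libraries. The strand split therefore guards against counting error and not against differences between cultures. Of the 97, 7 have windows that overlap that of another low promoter, which leaves 93 separate stretches, and Gbp4, Gbp8 and Gbp9 share a single window.

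In these 97 promoters the WT level was lowest around the TSS and rose more steeply upstream than downstream. Pooled over them, the WT level was 64.4% at 1.9 to 2 kb upstream, 25.8% at 400 to 500 bp upstream, and 7.59% in the last 100 bp before the TSS, and was 13.5% at 400 to 500 bp downstream. The steps just beyond the window, at 500 to 600 bp, had 48.6% upstream and 30.4% downstream. From 500 to 1000 bp downstream the WT level of the steps ran from 26.9% to 35.0%, against 58.2% to 61.0% at 600 to 1000 bp upstream. The TCKO level in the 100 bp before the TSS was 31.2%, and at 200 to 300 bp upstream it was 49.7% against 14.7% in WT, the widest gap of the 40 steps. Both libraries thus had their dip around the TSS, and its bottom was higher in TCKO. Since the window chose these promoters, the drop at its edges is part of the rule. In the 2296 promoters between 20% and 80%, the 100 bp before the TSS had 55.7% in WT and 65.7% in TCKO. In the 352 at 80% or more, the same step had 84.3% and 83.9%.

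**Figure D3:**
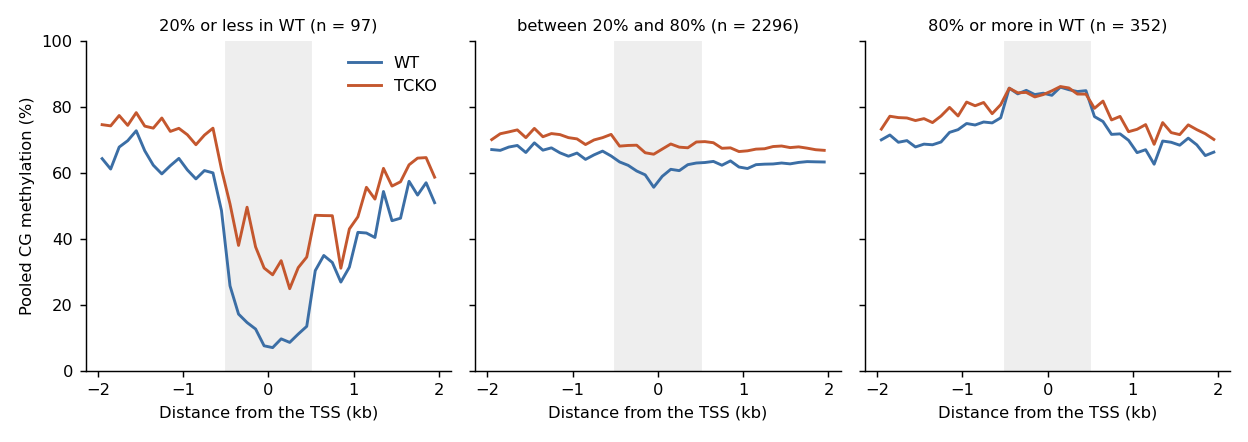
Pooled CG methylation (%) in 100 bp steps against the distance from the TSS (kb), in WT (blue) and TCKO (orange), for CpG-poor promoters at 20% or less, between 20% and 80%, and at 80% or more in WT. The grey band is the window that set the classes, and the low class dips to 7.03% in WT in the first 100 bp after the TSS, where TCKO has 29.1%.

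Few of the low promoters lay near a dense run of CGs. A stretch of 500 bp with at least 20 CGs lay within 2 kb of the TSS in 15 of the 97 (15.5%), in 7.14% of the other CpG-poor promoters and in 68.7% of all testable windows. By group, it was present for 1 of the 39 called higher, 5 of the 26 that were still low in TCKO, and 9 of the 32 between. Of the 97, 22 have more than 20 CG cytosines in the reference, some of them without calls. Galnt7, a glycosyltransferase gene with no methylated call in 35 (WT) and 33 (TCKO) calls, has 186 CG cytosines but 20 rows, so it belongs to the class only through missing calls. Annotation matters as well. Of the 68 low genes with a RefSeq start under the same symbol, 47 had one within 100 bp of the TSS used here, and 17 had the nearest more than 500 bp away.

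Several low promoters belong to genes for small leucine-rich proteoglycans and related matrix proteins, which lie side by side on chromosomes 10 and 13. Aspn (ENSMUSG00000021388, chromosome 13, 49544443 to 49567565, plus strand) went from 6.45% (124 calls, 95% Wilson interval 3.31% to 12.2%) to 64.5% (110 calls, 55.3% to 72.9%), with an adjusted p of 2.18e-19. Ecm2, a gene for a leucine-rich matrix protein upstream of it on the same chromosome, went from 6.48% (108 calls) to 60.2% (108 calls), with an adjusted p of 2.03e-15. A read can give several calls, and nothing used here says whether duplicates were discarded, so these intervals and p-values reflect counting error and nothing else. Lum, which encodes lumican, had 4.76% in WT (105 calls) and 47.6% in TCKO (103 calls), with an adjusted p of 5.29e-11. Its 240 bases upstream of the TSS hold no CG, and all 7 CGs of the window lie 94 to 477 bp downstream, so the values describe the stretch after the start. At the CG 94 bp downstream, 0 of 21 calls were methylated in WT and 10 of 21 in TCKO.

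Dcn, which encodes decorin and lies in the same cluster as Lum, changed less. Its window went from 2.38% (168 calls, 95% Wilson interval 0.930% to 5.96%) to 15.2% (197 calls, 10.9% to 20.9%), with an adjusted p of 4.80e-04 but a difference under the 20 points required for a call. Further upstream, at 500 to 1000 bp, Dcn had 5.66% in WT (53 calls) and 63.3% in TCKO (30 calls). The TCKO level at Dcn was therefore low at the start and high just beyond the window.

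Ogn (osteoglycin) and Omd (osteomodulin), the other members of the cluster on chromosome 13, were above the limit of 20% for a low level in WT. Ogn went from 21.3% (258 calls) to 59.0% (188 calls), with an adjusted p of 1.15e-13, and Omd from 33.5% (164 calls) to 73.0% (163 calls), with an adjusted p of 1.34e-10. In the 4 capitals shown for Ogn, at 232, 209, 178 and 123 bp upstream, 0 of 26, 0 of 22, 0 of 19 and 0 of 13 calls were methylated in WT, against 8 of 20, 5 of 18, 7 of 15 and 1 of 7 in TCKO. The WT level of the whole window was carried by CGs more than 400 bp upstream. Omd kept an unmethylated stretch at 500 to 1000 bp upstream, with 0.847% in WT (118 calls) and 0.943% in TCKO (106 calls). Over the 120 kb from the start of Ecm2 to the last gene of this cluster, pooled methylation was 72.0% in WT and 84.6% in TCKO, and over the 203 kb that hold Dcn, Lum, Kera and Epyc it was 72.8% and 82.9%. Kera (keratocan) and Epyc (epiphycan) were at 65.0% and 70.0% in WT and 79.8% and 81.6% in TCKO, and neither was called. At the Epyc CG 306 bp downstream, however, 5 of 41 calls were methylated in WT and 28 of 45 in TCKO. The 500 bp before the Epyc start had 86.4% and 86.8%. Outside its window, at 1500 to 2000 bp downstream, Kera had 25.2% in WT (139 calls) and 85.4% in TCKO (123 calls).

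Over the list of collagens and other matrix proteins, 11 of 60 autosomal genes had CpG-poor promoters. Their median went from 19% to 60.2%, with a median change of 30.1 points, and all 11 were higher in TCKO, 6 of them called. Over all CpG-poor promoters 69.4% were higher and 7.87% were called higher. Col3a1, the gene of type III collagen, went from 1.64% (61 calls) to 31.7% (63 calls), and Postn, which encodes the periosteal matrix protein periostin, from 19% (79 calls) to 59.5% (74 calls). At Col3a1, 11 of 15 calls were methylated in TCKO at the CG 272 bp upstream, against 1 of 16 in WT, whereas the CGs 290 and 307 bp downstream had 3 of 12 and 2 of 14 in TCKO. Podn and Spon2, both matrix proteins, were at 58.6% and 58.7% in WT and at 70.3% and 77.6% in TCKO, without a call. Of the 11, 6 were at 20% or less in WT, where the share over all CpG-poor promoters was 3.53%.

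Of 38 autosomal genes on the list for osteoblasts and mineralised matrix, 8 had CpG-poor promoters, whose median went from 66.2% to 82.5%, with a median change of 18.8 points. All 8 were higher in TCKO, and 4 were called, beside the same shares of 69.4% and 7.87% over all CpG-poor promoters. Ibsp, which encodes bone sialoprotein, went from 29.2% (96 calls) to 92.3% (65 calls), with an adjusted p of 4.70e-14. At its CG 417 bp upstream, 3 of 18 calls were methylated in WT and 15 of 17 in TCKO. The neighbouring CGs 425 and 429 bp upstream held 16 TCKO calls each, and the CGs 40 to 168 bp downstream only 1 to 5 each. The TCKO level of Ibsp thus rested mostly on neighbouring CGs that the same reads can cover. Mmp13, a collagenase of hypertrophic cartilage and bone, rose from 66.1% to 90.3%, and Dmp1, a matrix protein of osteocytes, from 66.2% to 87.0%. Mepe, Bglap and Sparc had 69.5%, 71.8% and 76.5% in WT and 81.9%, 79.5% and 83.2% in TCKO, without a call. Bglap, the gene of osteocalcin, rested on 39 calls in each library, and its adjusted p was 0.997.

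Runx2, the gene of the transcription factor that directs osteoblast differentiation, was the only osteoblast gene of the list with a low CpG-poor promoter in WT. Its most upstream annotated start (chromosome 17, minus strand) went from 2.88% (139 calls, 95% Wilson interval 1.12% to 7.17%) to 19.7% (122 calls, 13.6% to 27.6%). The adjusted p was 3.44e-04 and the difference 16.8 points, so it was not called. The methylated calls in TCKO were unevenly placed, with 7 of 18 and 7 of 20 at the CGs 480 and 447 bp upstream and 0 of 12 at each of those 291 and 301 bp downstream.

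**Figure D4:**
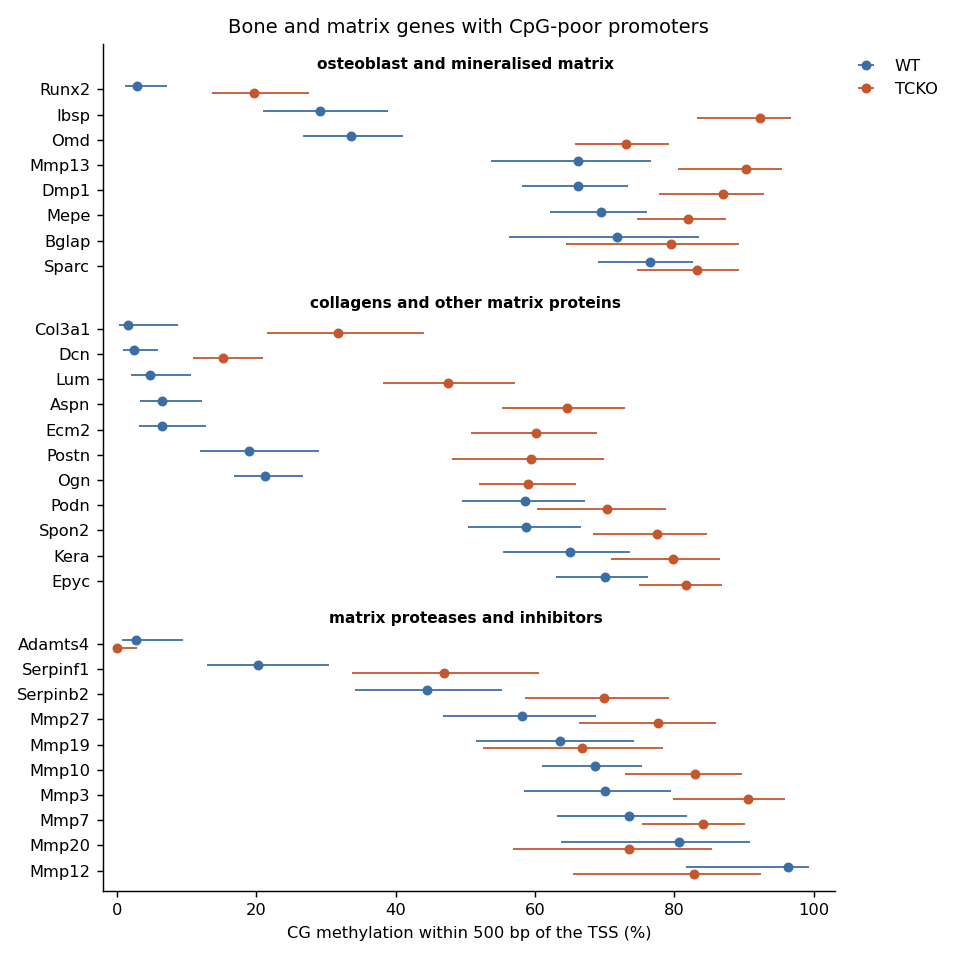
CG methylation (%) within 500 bp of the TSS in WT (blue) and TCKO (orange) for the CpG-poor promoters of 3 gene lists, ordered by WT level within each list, with horizontal lines for 95% Wilson intervals of counting error. The intervals of Runx2, Ibsp, Omd, Mmp13, Dmp1, Col3a1, Dcn, Lum, Aspn, Ecm2, Postn and Ogn do not overlap between the libraries. The same holds for Spon2, Serpinf1, Serpinb2 and Mmp3, while the intervals of the other promoters shown overlap. Dcn and Runx2 are under 20% in both libraries, and Adamts4 is at 0% in TCKO.

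Of the genes for matrix proteases and their inhibitors, 10 of 42 had CpG-poor promoters, with medians of 66.1% (WT) and 75.6% (TCKO) and a median change of 12.4 points. Serpinf1, which encodes the secreted factor PEDF, rose from 20.3% to 46.9%, and Serpinb2, an inhibitor of plasminogen activators, from 44.4% to 69.9%. Adamts4, an aggrecanase gene, had few methylated calls in either library, with 2 of 73 methylated calls in WT and 0 of 129 in TCKO, where the 95% Wilson interval reaches 2.89%. The single CG in its 240 bases had 1 of 14 methylated calls in WT and 0 of 16 in TCKO. Its window, like those of Dcn and Runx2, was thus at 20% or less in both libraries.

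Among secreted factors and receptors of mesenchymal cells, 12 of 57 had CpG-poor promoters, with medians of 54.9% (WT) and 78.7% (TCKO) and a median change of 13.3 points. Ccl7, a chemokine that attracts monocytes, had 5.13% in WT (39 calls) and 81.1% in TCKO (37 calls), with an adjusted p of 6.26e-10. At its CG 299 bp upstream 2 of 28 calls were methylated in WT and 20 of 24 in TCKO. Clec11a, which encodes a growth factor of bone marrow stroma that promotes bone formation, went from 21.2% (132 calls, 95% Wilson interval 15.1% to 28.9%) to 75.9% (112 calls, 67.2% to 82.9%), with an adjusted p of 1.45e-15. Its 4 capitals above, at 140, 122, 109 and 71 bp upstream, had 2 of 13, 0 of 13, 0 of 13 and 0 of 10 methylated calls in WT and 11 of 15, 6 of 15, 13 of 15 and 7 of 12 in TCKO. The other chemokines of the list with CpG-poor promoters, Ccl5, Ccl8 and Ccl11, were at 68.5% or more in WT and were not called.

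The largest increases among low promoters with at least 40 calls in each library were chosen by size, so their order is a description. Abca8a went from 19.1% (94 calls) to 85.9% (99 calls) and Spink13, a gene for a peptidase inhibitor of the Kazal type, from 13.7% (102 calls) to 80.2% (86 calls). Pi15, which encodes a secreted peptidase inhibitor, went from 4.44% to 63.2%, and Fcgrt, the gene of the neonatal Fc receptor that salvages IgG and albumin, from 9.26% (54 calls) to 66.7% (69 calls). The 5 capitals of Fcgrt had 0 methylated calls in WT, but on only 1 or 2 calls each, so the WT level of the window rested on its other CGs.

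S100a4, a calcium-binding protein of migrating mesenchymal cells, went from 12.8% (117 calls) to 65.4% (130 calls), with an adjusted p of 2.09e-15. Mrgprh, a receptor of the Mas-related family, went from 13.2% to 66.7%, Gm10974 from 17.3% to 63.3%, and Cpa6, a carboxypeptidase, from 2.38% to 47.5%. The cadherins Cdh19 and Cdh18 went from 9.47% to 60.6% and from 9.68% to 54.4%. All of these were called. For Cdh18 the RefSeq start lies 487441 bp from the start used, which is the most upstream transcript of the gene. With Aspn and Ecm2, these are the 12 largest increases among low promoters with at least 40 calls in each library. Some low promoters with fewer calls, such as Ccl7, rose by more.

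The deepest promoters at 20% or less in both libraries included Dcn, Tmem40, Pcdhb22, Runx2 and Etnppl. Tmem40, a transmembrane protein gene, had 6.01% in WT (183 calls) and 9.09% in TCKO (165 calls). Pcdhb22, a protocadherin, had 18% and 18.1%, and Etnppl, an enzyme of phospholipid breakdown, 16.5% and 18%. Tmem40, Pcdhb22 and Etnppl thus differed by 3.08 points or less between the libraries. Ccdc80, a secreted matrix-associated protein, had 0 of 85 methylated calls in WT, where the 95% Wilson interval reaches 4.32%, and 9.72% in TCKO (72 calls).

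The 6 promoters called lower had medians of 59.4% in WT and 28.4% in TCKO. Slc5a11, a sodium-coupled inositol transporter, had 43.5% in WT (23 calls) and 0 of 20 calls in TCKO, where the 95% Wilson interval reaches 16.1%. Obox2, an oocyte homeobox gene, went from 59.6% (104 calls) to 33.3% (99 calls), and Hsd3b6, a steroid dehydrogenase, from 78.9% (90 calls) to 53.9% (76 calls). Zfp352, Defa3 and Gm16368 went from 83.8% to 61.8%, from 59.2% to 23.5% and from 26.6% to 4.55%. Defa3, an intestinal defensin, and Obox2 belong to families with near-identical copies, where uniquely mapped reads may cover the window only in part. None of the 6 is on the lists for bone or matrix, and their adjusted p ranged from 0.00461 for Obox2 to 0.0401 for Gm16368.

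Lists of genes of other tissues are read beside the 7.87% of all CpG-poor promoters that were called higher and their median change of 4.76 points. For liver, 29 promoters had medians of 66.7% (WT) and 74.3% (TCKO), a median change of 7.82 points, and 2 calls higher, Cps1 (36.5% to 63.5%), the urea cycle enzyme, and Itih2 (55.7% to 82.5%), a hyaluronan-binding plasma protein. For muscle, 11 promoters had a median change of 4.77 points with 1 call, Myh1 (52.2% to 78.7%), a fast myosin heavy chain. For epidermis and keratins, 19 promoters had a median change of 3.11 points and no call, with WT levels from 45.5% to 80%. The share called was 6.90% for liver and 9.09% for muscle, near that of all CpG-poor promoters. None of the promoters on these 3 lists was at 20% or less in WT, and none was called lower.

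Genes of other cells that a calvarial culture can hold were described in the same way. Of the macrophage and osteoclast list, 30 promoters had medians of 68.1% (WT) and 74.2% (TCKO) and a median change of 7.15 points, with WT levels from 20% to 87.5%. Lyz2, which encodes lysozyme, went from 20% (40 calls) to 66.7% (39 calls) and Csf1r, the receptor of macrophage colony-stimulating factor, from 56.3% (71 calls) to 86.4% (44 calls), and both were called. Ptprc, the leukocyte antigen CD45, had 70.8% in WT (137 calls) and 74.3% in TCKO (148 calls), and was not called. The 20 promoters of the lymphocyte and neutrophil list had a median change of 3.50 points, with 1 call at Il2ra (63.0% to 89.4%). The 9 of the endothelium and erythroid list had a median change of 16.2 points, with 1 call at Icam2 (61.0% to 82.8%). The shares called on these 3 lists were 6.67%, 5.00% and 11.1%, beside 7.87% of all CpG-poor promoters.

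The 6 promoters of the chondrocyte list had medians of 57.1% (WT) and 77.1% (TCKO) and a median change of 17.4 points. Ucma (47.1% to 86.5%), Cytl1 (28.2% to 65.5%) and Prg4, which encodes lubricin (66.2% to 89.5%), were called. The share called was 50%, the same as on the osteoblast list, beside 7.87% of all CpG-poor promoters. In a bulk culture a change in the share of a cell type and a change in the methylation of its promoters cannot be told apart, and the part of cell makeup in these results was not tested. Methylation does not measure expression, so these levels do not check the identity of the cells. At the gene-level starts used here, windows of osteoblast genes ran from 2.88% (Runx2) to 76.5% (Sparc) in WT. Of the 2745 CpG-poor promoters, 471 have the start of the principal annotated transcript more than 500 bp from the start used. Which start the cells use was not tested.

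Short strings in the 1000 bp windows were counted on both strands as a description, since a match is not a site in use. TGACTCA or TGAGTCA, the AP-1 string, was present in 22.7% of the 97 low promoters, 18.1% of the other CpG-poor promoters and 11.7% of all testable windows. AACCACA, a RUNX string, was present in 21.6%, 21.8% and 14.5%. CATTCCA, a TEAD string, was present in 20.6%, 18.2% and 11.8%. CAGCTG was present in 53.6%, 44.4% and 41.8%, CCAAT in 66.0%, 79.3% and 69.8%, and TATAAA at 40 to 20 bp upstream on the strand of the gene in 4.12%, 6.65% and 2.16%. For the RUNX string the low and the other CpG-poor promoters had nearly the same share. The low class was also split into the 39 called higher and the 26 still low in TCKO. CATTCCA was present in 15 and 1 of these, the AP-1 string in 11 and 8, and AACCACA in 10 and 6. CAGCTG was present in 18 and 14, CCAAT in 29 and 15, and TATAAA in 4 and 0. No share was tested.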

How the data were processed

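CG methylation was analysed in 1 WT and 1 TCKO library of primary mouse osteoblasts. Reads had been mapped by the authors to GRCm38 with BSMAP, at most 2 mismatches and unique hits only. The deposited values are raw counts per CG cytosine on each strand, one count for methylated calls and another for all calls. The submitters' processing notes also name CASAVA. Libraries were assigned to genotypes by the genotype given in their sample labels. All 37380103 autosomal positions with a call lay on a CG of the reference.

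Calls were pooled within 500 bp of the gene-level TSS, and the level was methylated over all calls. A promoter at 20% or less was taken as low and one at 80% or more as high. Windows with at least 4 CG rows and 20 calls in each library entered the Fisher exact test. The median window had 72 calls in WT and 57 in TCKO. The code was tested on simulated data. The members, gene lists and tests were chosen with earlier results of these data known. Named genes were the 12 low promoters with at least 40 calls and the largest increases, the 6 deepest that were low in both, those called lower (up to 8), the study's own genes, and low promoters of the lists. Genes outside this rule, such as Ccdc80, further list members and Galnt7, were chosen after their values were seen. Alternatives changed the minimum of calls, window, count of CGs, averaging, strand, deepest cytosines, TSS, overlaps and thresholds. A few results and 1 sequence are not reported here. Non-CG data were not used here. Computations used Python 3.11.15, numpy 2.4.6, pandas 2.3.3, scipy 1.17.1, numba 0.67.0 and matplotlib 3.10.9.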

Additional observations from a re-analysis of the deposited data

How the results depend on the processing

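Of 68 alternative values for the 5 main results, 43 stayed close to the value reported and 25 moved. Only the median change could change direction, since the other results are counts, and it stayed positive in every alternative. The median change was 5.75 points within 250 bp of the TSS and 1.24 points within 1000 bp, where a limit of 20 CG rows keeps other genes. Promoters called higher numbered 42 within 1000 bp, 101 on plus-strand and 102 on minus-strand cytosines, and 58 with at least 40 points. Those called lower numbered 11, 1, 2 and 1 under the same settings. Low promoters numbered 62 with at least 40 calls, 565 within 250 bp, 5 within 1000 bp, 56 on the plus strand, 61 on the minus strand, 38 at 10% or less, 176 at 30% or less, and 37 at 20% or less in TCKO. Low promoters called higher numbered 124 within 250 bp, 1 within 1000 bp, 19 and 25 on the strands, 22 with at least 40 points, 16 at 10% or less and 66 at 30% or less. A single strand holds fewer calls, and the 250 bp and 1000 bp windows admit other genes, so these counts are over different promoters.

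With the start of the principal transcript, 2353 promoters and 72 low ones were shared with the set reported, 25 low genes moved by more than 500 bp, and the low class numbered 85. With CGs counted in the reference, 75 promoters were low. No paired analysis was possible because each genotype had 1 library, and for the same reason no library could be left out. Depth limits single promoters. Levels of the 2 strands of a promoter differed by a median of 9.29 points in WT, and changes read on each by 12 points.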

Other observations

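Genes of interferon-induced families (Ifit, Gbp, Ifi, Slfn, Oas and Iigp symbols) were looked up after their values had been seen, so their counts are a description. The 24 with CpG-poor promoters had median levels of 31.2% in WT and 48.4% in TCKO and a median change of 13.0 points. Of the 24, 23 were higher in TCKO, 6 were called higher and none lower, 10 were at 20% or less in WT and none was in TCKO. Over all CpG-poor promoters 69.4% were higher, 7.87% were called higher and 3.53% were at 20% or less in WT. Several of them sit in tandem and share windows or sequence, so they are not separate measurements.

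Ifit1, which binds foreign RNA caps, had 7.69% in WT (39 calls) and 43.5% in TCKO (23 calls). Ifit3 went from 21.4% (42 calls) to 67.7% (31 calls). Gbp2, a guanylate-binding protein of host defence and the deepest of the group, went from 30.4% (224 calls) to 63.7% (223 calls), and Gbp3 from 5.08% (59 calls) to 28.2% (39 calls). Ifi47, an interferon-induced GTPase, went from 40.6% to 79.5%. Ifi207 was the one promoter that was lower, with 60.9% in WT and 45.0% in TCKO, without a call.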
